A study of Arabidopsis thaliana with 16 samples.

Results

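ORA59, ERF1 and the defensin branch are 9 Arabidopsis thaliana genes of 34262 in the deposited tables, chosen by locus identifier: 2 transcription factors (ORA59, AT1G06160; ERF1, AT3G23240), 5 plant defensins of the PDF1 family (PDF1.1, AT1G75830; PDF1.2a, AT5G44420; PDF1.2b, AT2G26020; PDF1.2c, AT5G44430; PDF1.3, AT2G26010) and 2 basic pathogenesis-related proteins (PR4, AT3G04720; CHI-B, AT3G12500). Their RNA was measured in rosette leaves of Col-0 plants that had received 1 mM jasmonic acid (JA) or a water spray as seedlings at 2 weeks, and 0.1 mM JA or a water spray as adults at 5 weeks. The 4 groups are named by the seedling spray, called the history, and then the adult spray, called the challenge: JA_JA had JA both times, JA_W had JA as seedlings only, W_JA had JA as adults only, and W_W had water both times. Each group has 4 biological replicates, each a pool of 8 leaves with 4 from each of 2 plants, taken 4 h after the second spray. Water sprays carried the same ethanol as the JA sprays, and all plants also received 0.02% Silwet L-77, a wetting agent.

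Jasmonate responses in Arabidopsis leaves run along branches that differ in their transcription factors and outputs. In the ERF branch, jasmonate acts together with ethylene through the AP2/ERF factors ORA59 and ERF1, which bind the GCC box and drive antifungal defensins, chitinases and other pathogenesis-related proteins. The MYC branch, led by MYC2 and its relatives, drives wound and insect responses such as the vegetative storage proteins VSP1 and VSP2, and is known to antagonise the ERF branch. PDF1.2 is the usual marker of the ERF branch and VSP2 that of the MYC branch.

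The windows of 300 bases before the annotated RNA start are shown for ORA59, PDF1.2a, PDF1.2b and PDF1.2c, because these genes carry the results below and include the 3 of the 9 whose window holds a GCC box core. Sequence and annotation are those of RefSeq TAIR10.1, while the counts were made on TAIR10 and carry no coordinates. The windows lie at chr1:1882607-1882906 on the plus strand for ORA59, chr5:17907639-17907938 on the minus strand for PDF1.2a, chr2:11088823-11089122 on the plus strand for PDF1.2b and chr5:17909508-17909807 on the minus strand for PDF1.2c. They are written 5′ to 3′ towards the gene, with capitals marking the GCC box core GCCGCC, the element ERF factors bind, and the G-box CACGTG, an element that MYC2 and other basic helix-loop-helix factors bind.
ORA59: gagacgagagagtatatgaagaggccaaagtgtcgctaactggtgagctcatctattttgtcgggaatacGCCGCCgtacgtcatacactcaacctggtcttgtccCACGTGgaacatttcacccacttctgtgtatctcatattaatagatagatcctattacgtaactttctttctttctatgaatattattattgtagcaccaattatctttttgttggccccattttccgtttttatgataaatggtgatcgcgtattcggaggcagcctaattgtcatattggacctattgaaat
PDF1.2a: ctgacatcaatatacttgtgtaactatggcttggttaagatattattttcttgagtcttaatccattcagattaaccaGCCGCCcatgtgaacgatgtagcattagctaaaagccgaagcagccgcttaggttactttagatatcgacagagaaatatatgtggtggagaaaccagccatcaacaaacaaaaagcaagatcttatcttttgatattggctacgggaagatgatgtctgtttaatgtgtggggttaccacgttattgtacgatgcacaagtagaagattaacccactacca
PDF1.2b: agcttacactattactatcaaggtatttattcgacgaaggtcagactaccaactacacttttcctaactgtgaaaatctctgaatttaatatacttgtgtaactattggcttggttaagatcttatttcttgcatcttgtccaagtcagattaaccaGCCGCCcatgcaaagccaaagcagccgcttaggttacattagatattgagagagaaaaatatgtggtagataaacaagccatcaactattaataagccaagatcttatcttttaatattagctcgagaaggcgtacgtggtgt
PDF1.2c: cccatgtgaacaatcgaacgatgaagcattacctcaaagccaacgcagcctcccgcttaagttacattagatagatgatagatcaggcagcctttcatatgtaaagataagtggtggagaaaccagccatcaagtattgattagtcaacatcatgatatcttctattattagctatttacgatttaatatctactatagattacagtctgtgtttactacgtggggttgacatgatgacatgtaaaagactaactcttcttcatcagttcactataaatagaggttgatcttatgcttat

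Both motifs were searched on both strands, and their matches do not overlap. ORA59 held a GCC box core from -230 to -225 and a G-box from -194 to -189, counted from the annotated start. The GCC box core stood at -222 to -217 in PDF1.2a and at -143 to -138 in PDF1.2b. In the windows of ERF1, PDF1.1, PDF1.2c, PDF1.3, PR4 and CHI-B, neither string of letters was found. The PDF1.2c window opens on bases like those at the end of the PDF1.2a core and just after it. A core at that place in PDF1.2c would be cut by the window's edge, so the search could not show its absence. Of 27561 gene windows of the same length, 626 (2.27%) held GCCGCC and 1946 (7.06%) held CACGTG. These matches describe the windows only.

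**Figure D1:**
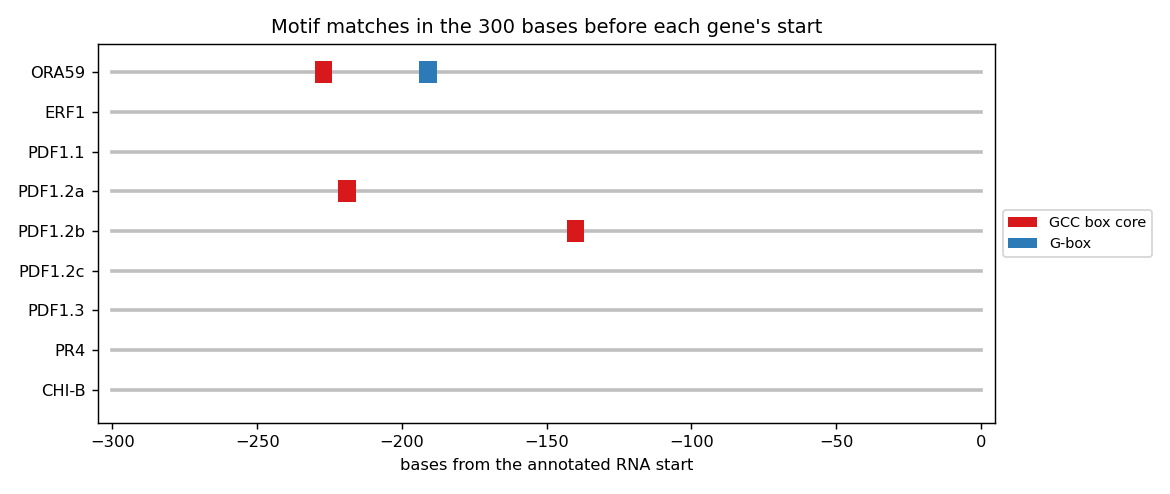
Motif matches in the 300 bases before the annotated RNA start of the 9 genes, with distance from the start in bases on the x axis and 1 gene per row. Boxes mark the GCC box core and the G-box: ORA59 has both, PDF1.2a and PDF1.2b have a GCC box core, and the other 6 rows are empty.

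The defensins sit partly in pairs. PDF1.2a and PDF1.2c are neighbours on chromosome 5 with 1211 bases and no other gene between them, and PDF1.3 and PDF1.2b are neighbours on chromosome 2 with 1121 bases and no other gene between them. The coding sequences of the 5 PDF1 genes are 243 bases each and differ at 13 to 31 of them, with identities of 87.2% to 94.7%. Of the possible 50 base reads from each spliced transcript, 5.0% of those from PDF1.2b and 4.9% of those from PDF1.3 occur in both genes, as do 0.566% of those from PDF1.2a and 0.601% of those from PDF1.2c in that pair. Reads of the copies could thus mostly be told apart, and how shared reads were counted is not given in the sources used here. CHI-B overlaps AT3G12502 on the opposite strand and the strandedness of the counting is likewise not given, so reads of the 2 genes cannot be told apart and CHI-B values are uncertain.

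Libraries held 32190193 to 34319939 counted reads, so 1 read was about 0.0293 CPM (reads scaled to a library total of 1e6). The leaf markers RBCS1A, RCA and CAB1 summed to 26400 to 46600 CPM in every library, against at most 0.99 CPM for the flower markers AP1 and AG and at most 0.0631 CPM for the seed storage genes CRA1 and CRU3. The guard cell markers KAT1 and MYB60 summed to 24.1 to 52.1 CPM, and the phloem companion cell marker SUC2 had 160 to 302 CPM. In bulk leaf RNA, fewer cells of a type and less RNA per cell cannot be told apart. Replicates differed beyond sampling noise in every group, with chi-square per gene from 6.05 to 75.0. In JA_W leaves, replicate 1 stood apart from the others, at 44.6 to 48.8 per gene, against 6.05 to 9.59 among the other 3. In W_W leaves, replicate 4 stood apart, at 50.1 to 75.0 against 12.6 to 39.7 among the other 3. JA_JA replicates 2 and 3 were closer to each other (9.52) than any other JA_JA pair (27.4 to 37.9), and W_JA replicates 2 and 4 likewise (17.6, against 35.3 to 63.3).

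All levels below are CPM after TMM scaling of the library sizes. Changes are log2 fold changes with their standard error (SE) from the edgeR quasi-likelihood test, adjusted by the Benjamini-Hochberg method over the 19224 genes tested, and a gene is said to rise or fall where the adjusted p is below 0.05. PDF1.1 did not pass the filter on low counts, so 8 of the 9 genes were tested. ERF1, PDF1.2b, PDF1.2c and PDF1.3 passed only through libraries with a water history. The history changes and p-values of these genes below are therefore descriptions, since a high water-history level let them into the test. PDF1.2c reached the filter's cutoff of 0.293 CPM in all 4 W_JA libraries but in only 2 W_W libraries. Its challenge change and p-value with a water history are therefore descriptions as well. A gene that had no read in a library may still have had up to 0.0767 to 0.101 CPM there, the value of 3 reads.

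ORA59, an AP2/ERF activator needed for defensin induction by jasmonate and ethylene, fell under the JA challenge with either history. It had 0.23, 0.0316, 0 and 0.168 CPM in the 4 JA_JA libraries, against 1.25, 1.08, 1.01 and 1.09 CPM in the JA_W libraries. With a water history it had 0.319, 0.0901, 0.514 and 0.142 CPM in W_JA leaves, against 3.62, 4.02, 2.08 and 3.27 CPM in W_W leaves. The groups of each challenge pair did not overlap, and the highest challenged library of all, a W_JA one, was below the lowest unchallenged library. In JA-history plants the change was -3.29 ± 0.53 (edgeR adjusted p = 0.000157), and in water-history plants it was -3.60 ± 0.42 (edgeR adjusted p = 8.63e-06), a 12.1-fold fall. The 2 challenge effects differed by 0.31 ± 0.84 on the log2 scale (edgeR adjusted p for the interaction = 0.831), an error wide enough that a difference of either sign is within it. Without JA_JA replicate 1, which held 8 of that group's 14 reads, the fall in JA-history plants was -4.01.

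The seedling spray also left ORA59 lower 3 weeks on. JA_W leaves averaged 1.11 ± 0.0995 CPM and W_W leaves 3.25 ± 0.837 CPM (SD, n = 4 each), a change of -1.55 ± 0.35 (edgeR adjusted p = 0.001). Under challenge, JA_JA leaves averaged 0.107 ± 0.109 CPM and W_JA leaves 0.266 ± 0.192 CPM, and this difference of -1.24 ± 0.64 was not called (edgeR adjusted p = 0.135). Leaves with only the seedling spray held 4.14-fold more ORA59 RNA than leaves with only the adult spray, 1.11 CPM in JA_W leaves and 0.266 CPM in W_JA leaves (2.05 ± 0.45, edgeR adjusted p = 0.000911). From high to low the order was W_W, JA_W, W_JA and JA_JA, and of the neighbours in it only W_JA and JA_JA were not told apart.

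ERF1, an activator that integrates ethylene and jasmonate signals, fell under the challenge in water-history plants and rose under it in JA-history plants. It had 0.172, 0.158, 0.261 and 0.235 CPM in JA_JA leaves, against 0.111, 0.0598, 0.0297 and 0.0607 CPM in JA_W leaves. In W_JA leaves it had 0.383, 0.42, 0.363 and 0.512 CPM, against 2.09, 2.25, 1.38 and 0.754 CPM in W_W leaves. No pair overlapped: every JA_JA library was above every JA_W library, and every W_JA library was below every W_W library. The challenge changed ERF1 by 1.59 ± 0.55 in JA-history plants (edgeR adjusted p = 0.0352) and by -1.94 ± 0.31 in water-history plants (edgeR adjusted p = 0.000207). The difference between the 2 responses was 3.53 ± 0.63 (edgeR adjusted p for the interaction = 0.00166), and ERF1 was the only one of the 8 tested genes whose interaction was called; 8.01% of all genes tested were called with a positive interaction and 10.4% with a negative one. A positive interaction was not particular to ERF1, as 4 of 9 tested relatives in ERF group IX were called with one too. The rise in JA-history plants starts from 9 reads over the 4 JA_W libraries, and it lost its call when any of 6 libraries was left out, with edgeR adjusted p-values up to 0.0923. The interaction kept its call without each library in turn, at 3.30 to 3.90, and was 3.90 without JA_W replicate 1 and 3.76 without W_W replicate 4, the libraries that stood apart.

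A JA history lowered ERF1 in unchallenged leaves. JA_W leaves averaged 0.0652 ± 0.0336 CPM and W_W leaves 1.62 ± 0.689 CPM (SD, n = 4 each), a 23.4-fold fall of -4.55 ± 0.42 (edgeR adjusted p = 1.78e-07). Under challenge, JA_JA leaves averaged 0.207 ± 0.0495 CPM and W_JA leaves 0.42 ± 0.066 CPM; the groups did not overlap, but the change of -1.02 ± 0.40 was not called (edgeR adjusted p = 0.0511). That p lay below 0.05 in 5 of the alternatives run, among them unscaled library totals (0.0401) and a fit of the 2 groups alone (0.0262). From high to low the order was W_W, W_JA, JA_JA and JA_W, so the groups that had only 1 JA spray stood in the other order than for ORA59. JA_W was 6.09-fold lower than W_JA for ERF1 (-2.61 ± 0.48, edgeR adjusted p = 0.000213).

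**Figure D2:**
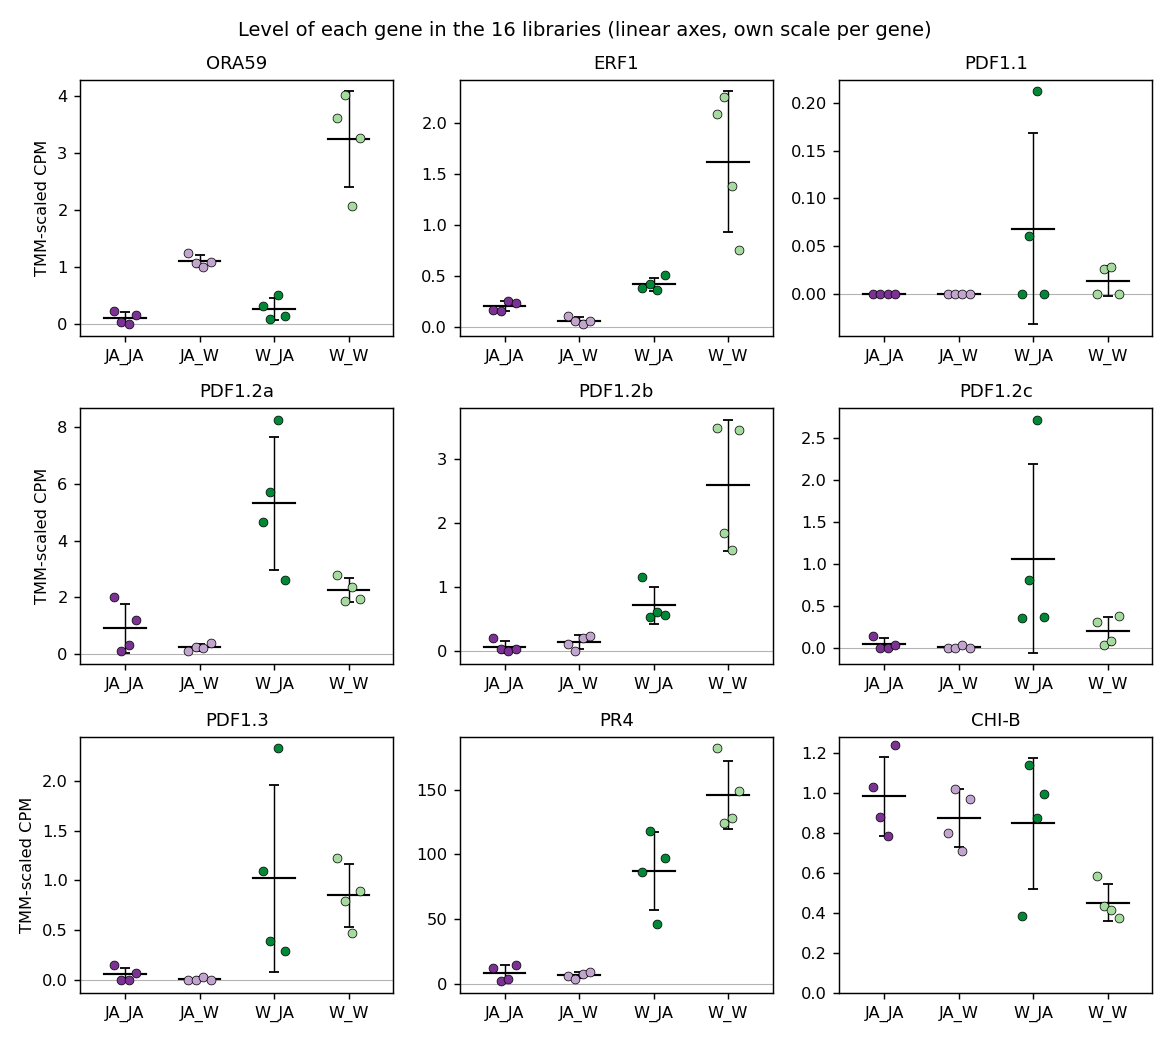
Level of each of the 9 genes in the 16 libraries, in TMM-scaled CPM on linear axes with a scale of their own; points are libraries, horizontal lines group means and bars the SD of 4 replicates. ORA59 is low in both challenged groups, ERF1 and PR4 are low in both JA-history groups, and the W_JA libraries of PDF1.2a reach 8.26 CPM.

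The 5 PDF1 defensins, small secreted cysteine-rich proteins with antifungal activity, were scarce in all leaves and scarcest after a JA history. Their summed level was 1.08 ± 1.08 CPM in JA_JA leaves, 0.401 ± 0.192 CPM in JA_W leaves, 8.19 ± 4.3 CPM in W_JA leaves and 5.9 ± 1.61 CPM in W_W leaves (SD, n = 4 each). The JA-history libraries ran from 0.158 to 2.5 CPM, all below the water-history libraries at 3.84 to 14.1 CPM. The challenge and water groups overlapped within each history. For scale, VSP2, the marker of the MYC branch, rose by 5.88 ± 0.27 in JA_JA against JA_W leaves (edgeR adjusted p = 7.93e-11) and by 9.54 ± 0.32 in W_JA against W_W leaves (edgeR adjusted p = 1.36e-12). It reached 7440 ± 1430 CPM in JA_JA leaves and 2740 ± 406 CPM in W_JA leaves. All 5 MYC branch outputs listed rose with the challenge in each history. Over all genes tested, 15.4% rose with a JA history and 13.9% with a water history. In JA_JA against W_JA leaves 2 of the 5 rose, VSP2 among them, and 1 fell (18.9% of all genes higher, 21.2% lower). The fall was that of TAT3, at -3.38 ± 0.62 (edgeR adjusted p = 0.00089).

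PDF1.2a, the copy most often used as the marker of the branch, was the PDF1 gene with the most reads after challenge. It had 2.01, 0.126, 0.326 and 1.21 CPM in JA_JA leaves, against 0.111, 0.269, 0.208 and 0.394 CPM in JA_W leaves. It had 4.66, 5.73, 8.26 and 2.62 CPM in W_JA leaves, against 2.79, 1.89, 2.38 and 1.94 CPM in W_W leaves. In both pairs the challenged libraries reached higher but the groups overlapped, through JA_JA replicates 2 and 3 and through W_JA replicate 4. PDF1.2a rose by 1.92 ± 0.69 in JA-history plants (edgeR adjusted p = 0.044), a call that was lost under most alternatives. Without JA_JA replicate 1 the change was 1.16 (edgeR adjusted p = 0.232). In water-history plants its change of 1.24 ± 0.47 was not called (edgeR adjusted p = 0.0639), although it was in a fit of the 2 groups alone (0.0116) and without W_JA replicate 4 (0.037).

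A JA history lowered PDF1.2a in both adult conditions. JA_W leaves averaged 0.246 ± 0.119 CPM and W_W leaves 2.25 ± 0.42 CPM (SD, n = 4 each), a 9.13-fold fall (-3.19 ± 0.63, edgeR adjusted p = 0.000392). JA_JA leaves averaged 0.918 ± 0.867 CPM and W_JA leaves 5.32 ± 2.35 CPM, a 5.69-fold fall (-2.51 ± 0.52, edgeR adjusted p = 0.00161). Neither pair overlapped, and without JA_JA replicate 1 the second change was -3.27. Challenged leaves with a JA history were also lower than leaves that never met JA, 0.918 CPM in JA_JA and 2.25 CPM in W_W (-1.27 ± 0.53, edgeR adjusted p = 0.0482), but these groups overlapped and the call was lost under most alternatives.

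PDF1.2b, whose coding sequence is 93.8% identical to that of PDF1.2a, fell under the challenge in water-history plants. It had 1.15, 0.54, 0.605 and 0.569 CPM in W_JA leaves, against 3.48, 1.84, 1.58 and 3.45 CPM in W_W leaves. Every W_JA library was below every W_W library, with a change of -1.85 ± 0.43 (edgeR adjusted p = 0.0043). In JA-history plants it had 0.201, 0.0316, 0 and 0.0336 CPM in JA_JA leaves, against 0.111, 0, 0.208 and 0.243 CPM in JA_W leaves. These libraries held 0 to 8 reads each, the groups overlapped and the change of -0.95 ± 0.89 was not called (edgeR adjusted p = 0.445). A JA history lowered PDF1.2b, with a change of -4.17 ± 0.54 without challenge (edgeR adjusted p = 5.37e-06) and of -3.27 ± 0.69 under it (edgeR adjusted p = 0.00164). Under challenge the change was -4.82 without JA_JA replicate 1. Its order from high to low was W_W, W_JA, JA_W and JA_JA, and only the last pair of neighbours was not told apart.

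The composition of the defensin RNA differed between the water-history groups. PDF1.2b supplied 10.5 ± 5.69% of the PDF1 reads in W_JA leaves and 42.8 ± 7.18% in W_W leaves (SD, n = 4 each), with libraries at 4.28% to 15.9% in W_JA and 34.8% to 51.7% in W_W. PDF1.2a supplied 66.8 ± 7.39% in W_JA leaves and 39.7 ± 9.88% in W_W leaves, again without overlap. The PDF1.2 copies summed as 1 gene changed by 0.49 in water-history plants (edgeR adjusted p = 0.492), and neither the fall of PDF1.2b nor the rise of PDF1.2c is visible in that sum. These shares were chosen for description after the levels of the copies had been seen. In JA-history leaves the shares rest on 142 reads in JA_JA and 54 reads in JA_W leaves, where PDF1.2a supplied 87.6 ± 9.46% in JA_JA and 63.9 ± 25.2% in JA_W.

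**Figure D3:**
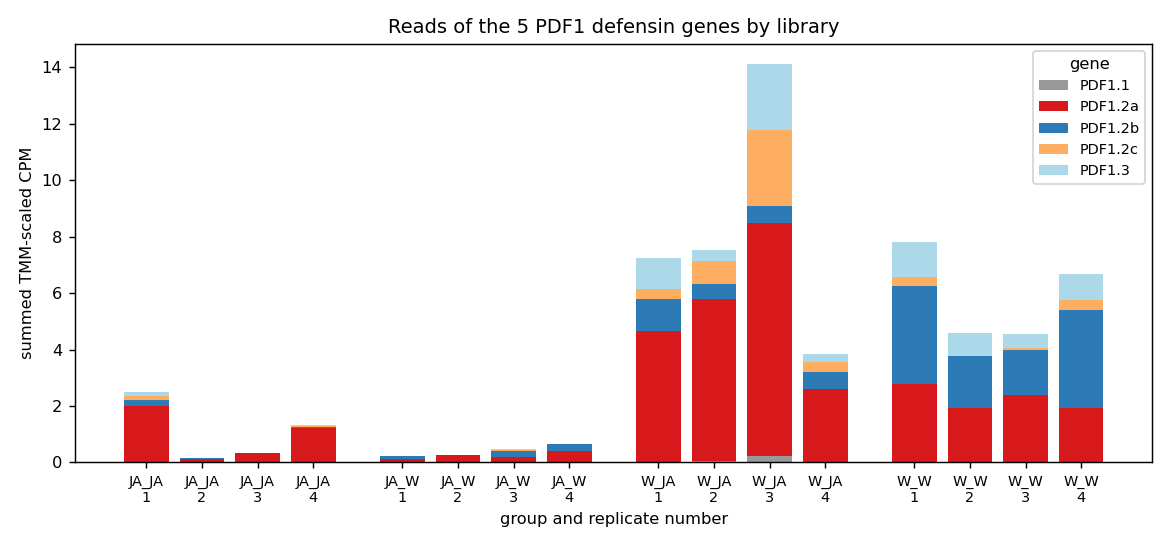
Summed TMM-scaled CPM of the 5 PDF1 defensins in each library, stacked by gene, on a linear axis from 0. The blue PDF1.2b segment is at most 1.15 CPM in W_JA libraries and at least 1.58 CPM in W_W libraries, and the JA-history libraries reach 2.5 CPM at most.

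PDF1.2c, the chromosome 5 neighbour of PDF1.2a, had 0.351, 0.811, 2.72 and 0.37 CPM in W_JA leaves, against 0.307, 0.0256, 0.0831 and 0.377 CPM in W_W leaves. Its W_JA libraries let PDF1.2c into the test, so its challenge change is a description. It rose by 2.43 ± 0.73 (edgeR adjusted p = 0.0207), although the groups overlapped and W_JA replicate 3 alone held 90 of the 141 reads of its group. Without that library the change was 1.38 with an edgeR adjusted p of 0.135, and leaving out W_W replicate 2 or 3 also ended the call, as did a replicate block (0.0517). JA-history leaves held almost none of it, 6 reads in JA_JA leaves and 1 read in JA_W leaves. Under challenge the history effect was -4.40 ± 0.95 (edgeR adjusted p = 0.00214), with fitted values from -6.19 without JA_JA replicate 1 to -3.34 without W_JA replicate 3. Without challenge the counts were 1 read in JA_W and 28 reads in W_W leaves, a 26.2-fold lower count with a 95% counting interval of 4.33 to 1070; this comparison was called (edgeR adjusted p = 0.0334) but lost its call when any of 6 libraries was left out.

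PDF1.3, the chromosome 2 neighbour of PDF1.2b, had 1.09, 0.39, 2.33 and 0.284 CPM in W_JA leaves, against 1.23, 0.793, 0.471 and 0.898 CPM in W_W leaves. The groups overlapped and the change of 0.27 ± 0.53 was not called (edgeR adjusted p = 0.766). It fell with a JA history, to 1 read in JA_W leaves, against 123 reads in W_W leaves, a 115-fold lower count (95% counting interval 20.3 to 4580; edgeR adjusted p = 0.000127). Under challenge JA_JA leaves held 7 reads and W_JA leaves 134 reads, a change of -4.12 ± 0.82 (edgeR adjusted p = 0.00115), which was -5.33 without JA_JA replicate 1 and -3.32 without W_JA replicate 3. Between the JA-history groups the challenged leaves had 7.52-fold more reads, with an interval of 0.966 to 339 that includes no difference. These intervals cover counting error only.

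PDF1.1, a defensin known mainly from seeds, was near the detection limit. It had 0, 2, 7 and 0 reads in the W_JA libraries and 0, 1, 1 and 0 reads in the W_W libraries, and no read in the JA_JA or JA_W libraries. The ratio of W_JA over W_W reads was 4.93 with a 95% counting interval of 1.02 to 46.9, and it rests on W_JA replicate 3. Against the 9 reads of W_JA leaves, PDF1.1 was at least 2.87-fold lower in JA_JA leaves and at least 3.08-fold lower in JA_W leaves, with 3 reads over the group taken as the floor. These bounds too rest on W_JA replicate 3, without which 2 reads remain in W_JA leaves, too few for a bound. W_JA replicate 3 was the highest library of its group for all 5 PDF1 genes except PDF1.2b.

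PR4, a hevein-like chitin-binding protein, fell with a JA history in both adult conditions, and its challenge changes were not called. It had 12.1, 2.11, 3.17 and 14.3 CPM in JA_JA leaves, against 6.06, 3.32, 7.48 and 8.68 CPM in JA_W leaves. In W_JA leaves it had 86.1, 118, 46.2 and 96.9 CPM, against 182, 124, 128 and 149 CPM in W_W leaves. JA_JA replicates 1 and 4 were the higher ones of their group for PR4, as they were for PDF1.2a. The JA-history pair overlapped, and the water-history pair did not, though by a narrow margin between 118 and 124 CPM. The challenge changes of 0.31 ± 0.50 in JA-history plants (edgeR adjusted p = 0.674) and -0.75 ± 0.46 in water-history plants (edgeR adjusted p = 0.259) did not pass the threshold; a fit of the water-history groups alone gave an edgeR adjusted p of 0.0489 for the second. History changed PR4 by -4.51 ± 0.54 in JA_W against W_W leaves (22.9-fold, edgeR adjusted p = 5.13e-06) and by -3.45 ± 0.52 in JA_JA against W_JA leaves (edgeR adjusted p = 0.000197).

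CHI-B, a basic chitinase, was the 1 gene of the branch that rose with a JA history in unchallenged leaves. It had 1.03, 0.883, 0.784 and 1.24 CPM in JA_JA leaves and 0.802, 1.02, 0.713 and 0.971 CPM in JA_W leaves. In W_JA leaves it had 0.383, 1.14, 0.877 and 0.996 CPM, against 0.585, 0.435, 0.415 and 0.377 CPM in W_W leaves. Every JA_W library was above every W_W library (0.94 ± 0.29, edgeR adjusted p = 0.0091). The challenge raised it in water-history plants by 0.91 ± 0.29 (edgeR adjusted p = 0.0289), with W_JA replicate 1 inside the W_W range, and leaving out any of 6 libraries ended that call. Unscaled library totals (edgeR adjusted p = 0.0577) and a fit of the 2 groups alone (edgeR adjusted p = 0.0691) ended it too. Its changes under the challenge in JA-history plants, 0.17 ± 0.27 (edgeR adjusted p = 0.667), and with history under challenge, 0.21 ± 0.27 (edgeR adjusted p = 0.57), were not called. With an antisense neighbour and unknown strand handling, these values cannot be assigned to CHI-B alone.

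Per kilobase of spliced transcript, PR4 stood far above the others: 6.98 CPM per kb in JA_JA, 5.63 in JA_W, 76.6 in W_JA and 129 in W_W leaves. Among the rest, PDF1.2b (4.25), PDF1.2a (3.89) and ORA59 (2.99 CPM per kb) led in W_W leaves, and PDF1.2a led in W_JA leaves at 9.19 CPM per kb, followed by PDF1.2c at 1.94. In JA_W leaves ORA59 was next after PR4 at 1.02 CPM per kb, and in JA_JA leaves PDF1.2a was next at 1.59. In JA_W leaves ORA59 averaged 1.02 ± 0.0917 CPM per kb and PDF1.2a 0.424 ± 0.205 CPM per kb (SD, n = 4).

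Most of the 8 tested genes were lower with a JA history. In JA_W against W_W leaves 1 gene rose and 7 fell, where 33.8% of all genes tested were higher and 31.1% lower; the median change was -4.17 over the 8 genes and 0.05 over all genes. In JA_JA against W_JA leaves none rose and 5 fell, with 18.9% of all genes higher and 21.2% lower and medians of -2.89 and 0.01. The all-gene split under challenge depends on the scaling: 47.1% of called genes were higher as scaled here, 59.9% with upper-quartile scaling and 32.7% with unscaled totals. Because 4 of the 8 passed the filter only through water-history libraries, these counts are descriptions. The leaf markers moved with history too: 2 of 3 rose in JA_W against W_W leaves and 2 of 3 in JA_JA against W_JA leaves, with summed levels of 36700 to 46500 CPM in JA_W and 28700 to 37500 CPM in W_W leaves, and their part in the result was not tested. Of the 2 guard cell markers, 1 rose and none fell in JA_W against W_W leaves, and 1 rose and 1 fell in JA_JA against W_JA leaves, where KAT1 averaged 21.5 ± 4.83 CPM in JA_JA and 36.3 ± 4.46 CPM in W_JA leaves. The phloem and flower markers tested were not called in either history comparison.

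The challenge comparisons held calls in both directions. In JA_JA against JA_W leaves 2 genes rose (ERF1, PDF1.2a) and 1 fell (ORA59), where 15.4% of all genes were higher and 16.5% lower; the medians were 0.95 over the 8 genes and -0.01 over all genes. In W_JA against W_W leaves 2 rose (PDF1.2c, CHI-B) and 3 fell (ORA59, ERF1, PDF1.2b), where 13.9% were higher and 12.9% lower, with medians of -0.24 and 0.00. With unscaled totals the higher share of all called genes was 32.1% in place of 48.3% with a JA history, and 30.9% in place of 52.0% with a water history. Against leaves that never met JA, JA_JA leaves had 1 gene higher (CHI-B) and 6 lower, with 30.6% of all genes higher and 29.1% lower; 51.3% of called genes were higher, and 31.1% with unscaled totals. Leaves sprayed only as seedlings, JA_W, had 1 gene higher (ORA59) and 6 lower than leaves sprayed only as adults, W_JA, with 29.7% of all genes higher and 30.3% lower. ERF1, PDF1.2b, PDF1.2c and PDF1.3 passed the filter only through water-history libraries, and PDF1.2c needed its W_JA libraries to pass. The counts that involve W_W or W_JA leaves are therefore descriptions.

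**Figure D4:**
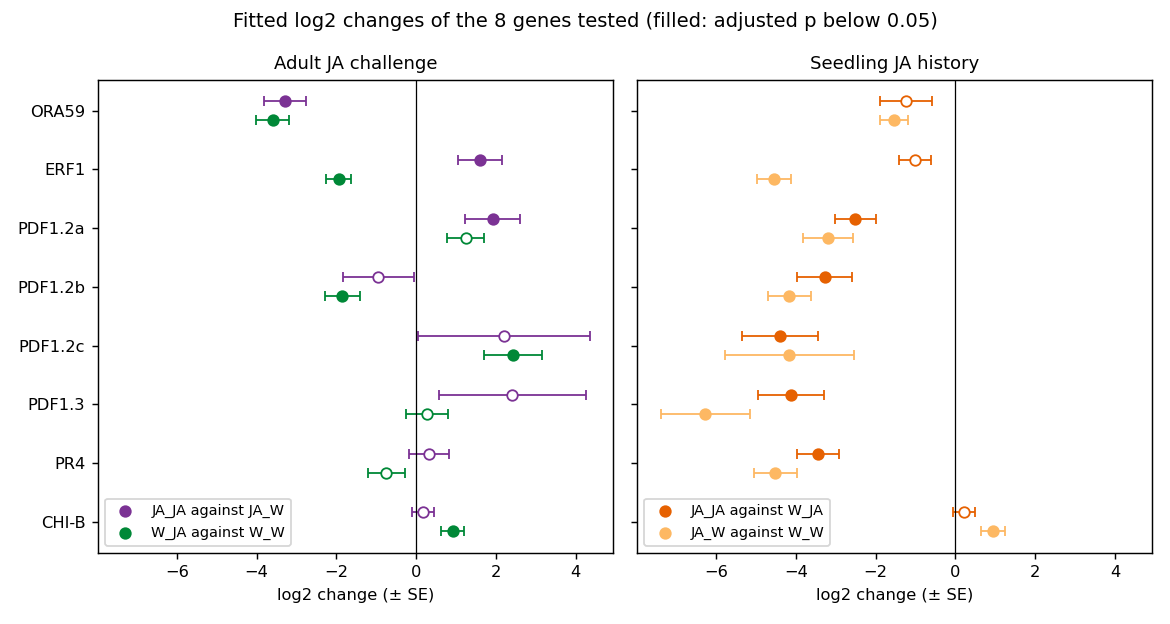
Fitted log2 changes with their SE for the 8 tested genes, for the adult challenge (left) and the seedling history (right); filled points have an edgeR adjusted p below 0.05. ERF1 is the gene whose called challenge effects point in opposite directions, and PDF1.2c and PDF1.3 in JA_W leaves rest on 1 read each, so their fitted sizes there are not bounds.

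The ethylene part of the pathway was examined through 11 receptor and signalling genes and 10 synthesis genes. In JA_W against W_W leaves all 11 signalling genes fell, where 31.1% of all genes did, with a median of -0.87 against 0.05 over all genes. They included the kinase CTR1 (-1.05 ± 0.10, edgeR adjusted p = 2.73e-07), the transcription factor EIN3 (-0.87 ± 0.10, edgeR adjusted p = 1.03e-06) and EBF2, an F-box protein that removes EIN3 (-1.07 ± 0.12, edgeR adjusted p = 1.16e-06). EIN3, which directly activates ERF1, averaged 102 ± 10.4 CPM in JA_W leaves and 186 ± 21.6 CPM in W_W leaves (SD, n = 4 each). It averaged 129 ± 8.74 CPM in JA_JA leaves and 180 ± 7.22 CPM in W_JA leaves. Its W_JA libraries, at 171 to 186 CPM, lay inside the W_W range of 168 to 217 CPM, whereas ERF1 fell in that comparison. Whether EIN3 RNA bears on ERF1 was not tested. In JA_JA against W_JA leaves 5 of the 11 fell and none rose, with a median of -0.35 and 21.2% of all genes lower. Under challenge 4 rose and none fell in JA-history plants, EIN3 among them (0.34 ± 0.10, edgeR adjusted p = 0.0115), whereas none rose and 4 fell in water-history plants, EBF2 among them (-0.77 ± 0.12, edgeR adjusted p = 0.000148). The all-gene shares for these challenge comparisons were 15.4% higher and 16.5% lower with a JA history, and 13.9% higher and 12.9% lower with a water history. The interaction was called for 4 of the 11, all positive, where 8.01% of all genes were.

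Of 9 tested synthesis genes, 2 rose and 5 fell with a JA history in unchallenged leaves, with a median of -1.71; over all genes tested, 33.8% were higher and 31.1% lower. ACS6, an ACC synthase, fell, with changes of -1.71 ± 0.16 in JA_W against W_W leaves (edgeR adjusted p = 2.3e-07) and -1.22 ± 0.16 in W_JA against W_W leaves (edgeR adjusted p = 2.44e-05). The ACC oxidase ACO3 rose with the challenge by 1.06 ± 0.22 in JA-history plants (edgeR adjusted p = 0.00147) and by 0.97 ± 0.22 in water-history plants (edgeR adjusted p = 0.00298).

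The close relatives of ORA59 and ERF1, the group IX ERF genes, mostly fell with a JA history in unchallenged leaves. Of 9 tested among 15 listed, none rose and 8 fell in JA_W against W_W leaves (median -1.51). In JA_JA against W_JA leaves none rose and 4 fell (median -0.44). Over all genes tested, 33.8% were higher and 31.1% lower without challenge, and 18.9% higher and 21.2% lower under it. The all-gene medians were 0.05 without challenge and 0.01 under it. ERF5 fell in 3 of these comparisons, with changes of -1.07 ± 0.14 in JA_JA against JA_W (edgeR adjusted p = 1.86e-05), -1.21 ± 0.13 in JA_W against W_W (edgeR adjusted p = 5.8e-07) and -1.84 ± 0.13 in W_JA against W_W leaves (edgeR adjusted p = 1.87e-08). ERF2, an activator of the same group, fell under challenge with either history, as ORA59 did, with changes of -1.94 ± 0.26 in JA-history plants (edgeR adjusted p = 2.98e-05) and -1.81 ± 0.23 in water-history plants (edgeR adjusted p = 2.76e-05). ERF13 went the other way, with rises of 3.63 ± 0.46 in JA-history plants (edgeR adjusted p = 1.55e-05) and 2.96 ± 0.39 in water-history plants (edgeR adjusted p = 2.47e-05). Under challenge 3 of the 9 rose and 2 fell with a JA history (15.4% of all genes higher, 16.5% lower). With a water history 1 rose and 5 fell (13.9% higher, 12.9% lower). The interaction was called for 4 of the 9, all positive, where 8.01% of all genes were. They included ERF107 (1.64 ± 0.26, edgeR adjusted p = 0.000832) and ERF104 (1.23 ± 0.32, edgeR adjusted p = 0.0162).

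Of 16 other known regulators of the branch, none rose and 13 fell in JA_W against W_W leaves (median -0.91; 31.1% of all genes lower), and none rose and 9 fell in JA_JA against W_JA leaves (median -0.49; 21.2% of all genes lower). The falls with the smallest p without challenge were those of the WRKY factors WRKY51 (-5.72 ± 0.42, edgeR adjusted p = 5.47e-08), WRKY70 (-4.48 ± 0.34, edgeR adjusted p = 8.78e-08) and WRKY50 (-3.84 ± 0.26, edgeR adjusted p = 2.22e-08), which are known to repress PDF1.2 downstream of salicylic acid. Lower levels were not limited to these repressors: WRKY33 averaged 27.0 ± 10.4 CPM in JA_W and 184 ± 33.6 CPM in W_W leaves. The challenge raised WRKY70 by 2.73 ± 0.32 in JA-history plants (edgeR adjusted p = 1.23e-05), and its interaction of 3.29 ± 0.43 was called (edgeR adjusted p = 0.000356). WRKY70 averaged 69.5 CPM in JA_JA and 10.5 CPM in JA_W leaves, against 159 CPM in W_JA and 233 CPM in W_W leaves. GRXC9, a glutaredoxin that represses ORA59 when overexpressed, rose by 5.26 ± 0.62 under challenge in JA-history plants (edgeR adjusted p = 1.75e-05). It averaged 9.68 ± 6.42 CPM in JA_JA and 0.243 ± 0.236 CPM in JA_W leaves (SD, n = 4 each). In W_JA leaves it averaged 14.2 ± 5.27 CPM and in W_W leaves 6.16 ± 1.48 CPM, a change that was not called. Its interaction was 4.05 ± 0.78 (edgeR adjusted p = 0.00347), and its part in the ORA59 levels was not tested. The repressor ERF4 rose with the challenge by 0.41 ± 0.09 in JA-history plants (edgeR adjusted p = 0.00354) and by 0.54 ± 0.09 in water-history plants (edgeR adjusted p = 0.000417). Of the 16 regulators, 5 rose and 1 fell under challenge with a JA history (15.4% of all genes higher, 16.5% lower). With a water history 1 rose and 4 fell (13.9% higher, 12.9% lower).

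Among other chitinases and basic defence proteins, none of 10 tested rose and 9 fell in JA_W against W_W leaves (median -1.88). In JA_JA against W_JA leaves none rose and 10 fell (median -1.9). Over all genes tested, 31.1% were lower without challenge and 21.2% under it. CHI (AT2G43570), a putative chitinase, averaged 4.16 ± 2.28 CPM in JA_JA leaves, 6.42 ± 2.54 CPM in JA_W leaves, 203 ± 111 CPM in W_JA leaves and 211 ± 78.5 CPM in W_W leaves (SD, n = 4 each). Its history changes were -5.61 ± 0.52 under challenge (edgeR adjusted p = 5.63e-06) and -5.03 ± 0.50 without it (edgeR adjusted p = 9.7e-07). The challenge lowered 6 of the 10 and raised none in each history. Over all genes tested, it lowered 16.5% with a JA history and 12.9% with a water history.

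Of 9 other defensins, 4 had no read in any library and 3 were tested. PDF1.4 fell, like PDF1.2b, with changes of -3.21 ± 0.39 in JA_W against W_W leaves (edgeR adjusted p = 2.81e-06) and -1.65 ± 0.34 in W_JA against W_W leaves (edgeR adjusted p = 0.00166). PDF2.2, of the other defensin subfamily, rose with the challenge in both histories, by 1.1 ± 0.20 in JA-history plants (edgeR adjusted p = 0.000575) and by 1.38 ± 0.21 in water-history plants (edgeR adjusted p = 0.000121). It also rose with history, by 0.89 ± 0.21 in JA_W against W_W leaves (edgeR adjusted p = 0.00126). The 4 other outputs of the branch held calls in both directions against W_W leaves. In W_JA against W_W leaves 2 rose and 2 fell (13.9% of all genes higher, 12.9% lower). In JA_W against W_W leaves 1 rose and 2 fell (33.8% of all genes higher, 31.1% lower). In JA_JA against JA_W leaves 1 rose and none fell (15.4% of all genes higher, 16.5% lower). In JA_JA against W_JA leaves 2 rose and none fell (18.9% of all genes higher, 21.2% lower). With 4 genes, these counts are descriptions. DTX18, a transporter of the MATE family, fell in W_JA against W_W leaves (-1.96 ± 0.47, edgeR adjusted p = 0.00624) and in JA_W against W_W leaves (-3.68 ± 0.52, edgeR adjusted p = 2.24e-05). AT5G61160, an acyltransferase gene, fell in JA_W against W_W leaves (-2.2 ± 0.73, edgeR adjusted p = 0.0163). The thionin THI2.2 rose in W_JA against W_W leaves (1.37 ± 0.32, edgeR adjusted p = 0.00419) and in JA_W against W_W leaves (3.01 ± 0.30, edgeR adjusted p = 3.69e-07). The thionin THI2.1, an antimicrobial peptide gene induced by jasmonate, had 273 reads in W_JA leaves and 2 reads in W_W leaves, a ratio of 150 (95% counting interval 41.0 to 1240). In JA-history plants it rose by 5.58 ± 0.40 with the challenge (edgeR adjusted p = 2.22e-08).

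The genes whose pattern over the 16 libraries was closest were named by the root mean square difference of centred log2 CPM among 17023 genes, a description over libraries that share their groups. For ORA59 these were WAG1 (0.626), KCS12 (0.823), AT5G48570 (0.837), CYP81F2 (0.85) and RLP21 (0.863), against a median of 1.9 over the genes compared. WAG1 averaged 0.0934 CPM in JA_JA, 1.33 in JA_W, 0.227 in W_JA and 2.92 CPM in W_W leaves, close to the ORA59 means. For ERF1 they were AT1G10417 (0.43), ATERDJ3A (0.434), NAP (0.455), TIN1 (0.475) and AT1G28190 (0.475), against a median of 1.44. For PDF1.2a they were AT2G25510 (0.667), AT1G51620 (0.692), AT1G24147 (0.74), WRKY58 (0.755) and AT1G67000 (0.755), against a median of 1.81, and for PR4 they were RLP52 (0.346), CRK4 (0.364), AT4G25070 (0.405), SDR3 (0.407) and CRK6 (0.414), against 2.26.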

How the data were processed

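Each library has a deposited table with raw read counts per gene and the authors' CPM (counts divided by the library total, times 1e6). Reads were trimmed, aligned and counted with tools that the submitters' processing notes list as Trimmomatic 0.38, STAR 2.6.1b and HTSeq 0.9.1 on TAIR10; their settings are not given in the sources used here. The deposited CPM served only to check the counts, which gave the same values to within 5.09e-11.

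Genes were kept by edgeR filterByExpr (minimum count 10, total 15), which left 19224 and removed 15038. With edgeR 4.0.16 in R 4.3.3, library sizes were scaled by TMM (factors 0.888 to 1.14) and the 16 libraries went into 1 model with 4 group means, which leaves 12 residual degrees of freedom; the biological coefficient of variation was 15.4%. Of 7 contrasts, 6 compare pairs of groups and 1 is the interaction; the groups are shared between contrasts. Tests were quasi-likelihood F-tests with Benjamini-Hochberg adjustment over all genes and a threshold of 0.05, tested first on simulated data. The simulation gave all genes the same spread and changed no gene with few reads. It therefore does not bear on calls such as those of PDF1.2c and PDF1.3. The p-values weigh differences between group means against the spread between the replicate pools of these samples. Alternatives were DESeq2 1.42.0, other scalings and filters, fits of 2 groups, a replicate block, summed copies and leaving out each library. A group with 1 to 3 reads gets a ratio of counts with an exact 95% interval, and 1 without a read gets a floor of 3 reads.

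The genes named are the 9 of the branch, up to 3 called genes per list and comparison with the smallest p, and the 5 genes most like ORA59, ERF1, PDF1.2a and PR4. The members and the 8 lists (81 genes, 67 tested) were chosen with earlier results of these data known. Sequences and transcript lengths were read from RefSeq TAIR10.1 with Python 3.11.15.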

Additional observations from a re-analysis of the deposited data

Results flagged for a closer look

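In 34 sets of 4 libraries of 1 group and 1 gene, 4 had a library far from the other 3. Chance marks about 1 in 20 sets of continuous values, but a set with 1 read in 1 library and none in the others is always marked, as for 2 of the 4 here. PDF1.2b had 1.15 CPM in W_JA replicate 1, against 0.54 to 0.605 CPM in the other W_JA libraries. PDF1.2b also had 0.201 CPM in JA_JA replicate 1, where the other JA_JA libraries had at most 0.0336 CPM. PDF1.2c and PDF1.3 each had 0.0297 CPM in JA_W replicate 3, which is 1 read, and no read in the other JA_W libraries.

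The response of ERF1 to the challenge differed between the histories, with an interaction of 3.53 on the log2 scale (edgeR adjusted p = 0.00166): it rose in JA_JA against JA_W leaves and fell in W_JA against W_W leaves. The rise starts from 9 reads over the 4 JA_W libraries. Leaving out some single libraries ended its call, with edgeR adjusted p-values up to 0.0923.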

How the results depend on the processing

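Replicate numbers are only names in the labels and did not pair the libraries: over 24 same-numbered pairs the deviations from the group means correlated at -0.332 to 0.339, 5 pairs were over 0.1, and 2 of 16 libraries correlated best with their own number. With a replicate block, PDF1.2c in W_JA against W_W (edgeR adjusted p = 0.0517), PDF1.2a in JA_JA against JA_W (0.0803) and PDF1.2a in JA_JA against W_W (0.0592) lost their calls, PDF1.3 in W_JA against W_W turned to -0.0014 and the interaction of PDF1.2c to 0.05. With the PDF1.2 copies, and with all PDF1 genes, summed as 1 gene, the change stood at 1.41 and 1.46 in JA_JA against JA_W leaves and at 0.49 and 0.47 in W_JA against W_W leaves, where PDF1.2b alone was negative, and the interaction at 0.92 and 0.98, where PDF1.2c alone was negative. A filter of 1 CPM in 4 libraries removes ERF1, PDF1.2c and PDF1.3 from the test and leaves 3 called genes for the challenge with a water history, 5 for history without challenge, 3 for history under challenge, 4 for JA_W against W_JA and 0 for the interaction. A fit of JA_JA and JA_W alone called 1 gene. Leaving out 1 library at a time gave 1 to 3 called genes for the challenge with a JA history, 3 to 6 for that with a water history, and 2344 to 4407 called interactions over all genes. The same range crossed 0 for PR4 in JA_JA against JA_W (-0.11 to 0.65), PDF1.3 in W_JA against W_W (-0.54 to 0.58), CHI-B in JA_JA against W_JA (-0.03 to 0.38) and in JA_W against W_JA (-0.22 to 0.21), and the interactions of ORA59 (-0.41 to 0.85), PDF1.2a (-0.08 to 1.09), PDF1.2b (-0.64 to 1.32) and PDF1.2c (-2.03 to 1.35). None of these was called, and the cause was not tested. Upper-quartile scaling and unscaled totals moved the median of all genes to between -0.18 and 0.13, and no gene of the branch changed sign under any scaling. Most of these genes are at or below a few CPM, so read number limits what can be told apart in JA-history leaves.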
